A study of Mus musculus with 5 samples.

Results

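The messenger RNAs of 10 genes for small nucleolar ribonucleoproteins (snoRNPs) and abundant nucleolar proteins were followed through an RNA immunoprecipitation of FLAG-tagged MKRN1 from mouse embryonic stem cells. The genes were picked by name, with earlier results of these arrays known: Fbl, Nop56 and Nop58 of the box C/D particle, Dkc1, Nhp2, Nop10 and Gar1 of the box H/ACA particle, and Ncl, Npm1 and Nolc1 of the nucleolus. They had 11 probe sets of their own among 34760, and all 10 genes lay above the level filter, a log2 mean of 5.76, that 11502 of 19937 genes passed. There was 1 array for each of 5 groups, so no difference has a replicate check, no test was possible and no p-value is given.

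Box C/D particles carry a guide RNA that directs 2′-O-methylation of ribosomal RNA, and box H/ACA particles carry one that directs the change of uridine to pseudouridine. Fibrillarin and dyskerin are the enzymes of these particles, and the other core proteins hold the guide RNA and fold the particle. Ncl, Npm1 and Nolc1 encode nucleolin, nucleophosmin and Nopp140, proteins that work in ribosomal RNA transcription and processing, in ribosome export, and in the traffic of snoRNPs through Cajal bodies. Stem cells divide fast and have large nucleoli, and messages of this kind are abundant in them.

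All arrays came from R1 cells, a male stem cell line of 129X1 x 129S1 background made from the inner cell mass, grown with LIF and serum and resistant to G418. Each line expressed its construct constitutively from a pCAGGS vector: FLAG:MKRN1, a fusion of a 3xFLAG tag to the RING and zinc finger protein MKRN1, or FLAG:Ctrl, the tag without MKRN1. The arrays held an anti-FLAG RIP and an IgG RIP of FLAG:MKRN1 lysate, an anti-FLAG RIP of FLAG:Ctrl lysate, then FLAG:MKRN1 and FLAG:Ctrl input RNA saved before the beads were added. The labels call the lines clones, without a number of clones, and the tagged protein came from a transgene while the labels name no change to the cell's own Mkrn1. Clone and construct therefore cannot be told apart in any difference between the lines.

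Probe-set signal of Mkrn1 did not mark the FLAG:MKRN1 line. It was 11.71 in FLAG:MKRN1 input and 11.80 in FLAG:Ctrl input, on the log2 scale used for all values. The anti-FLAG RIP of that lysate is therefore called the MKRN1-labelled RIP, and directions drawn from it rest on its label. All 10 embryonic stem cell markers examined passed the level filter, with medians from 10.75 to 11.43 over the arrays. Fibroblast feeder markers had medians from 5.83 to 6.11, near the filter. Postn, Lum, Dcn and Acta2 lay under it, and the other 6 of 10 passed it. Thy1 was the highest of them on every array, from 8.25 in the IgG RIP to 9.88 in FLAG:Ctrl input. The stem cell median was lowest and the feeder median highest in the MKRN1-labelled RIP. The part of either cell type in the results was not tested.

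Fbl, Nop56 and Nop58, which encode 3 of the 4 core proteins of the C/D particle, were lowest in the MKRN1-labelled RIP, by the brightest probe set of each gene. Their median difference was -1.01 from the IgG RIP and -0.91 from the FLAG:Ctrl RIP. Fbl, which encodes the methyltransferase fibrillarin, read 11.56 in the MKRN1-labelled RIP, against 12.57 in the IgG RIP, 12.56 in the FLAG:Ctrl RIP, 12.56 in FLAG:MKRN1 input and 12.61 in FLAG:Ctrl input. The other 4 arrays lay within 0.06 of each other, and the MKRN1-labelled RIP stood about 1 log2 unit under them. Its differences were -0.999 from the FLAG:Ctrl RIP, -1.01 from the IgG RIP and -0.999 from the input of the same lysate. The FLAG:Ctrl RIP and the FLAG:MKRN1 input had equal values for Fbl, so the differences from these arrays are the same number. Equal values on this pair occurred for 17.2% of the genes above the level filter.

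Nop56, which encodes one of a pair of related scaffold proteins that join the C/D guide RNA to fibrillarin, had a similar pattern. It read 10.69 in the MKRN1-labelled RIP, 11.69 in the IgG RIP, 11.60 in the FLAG:Ctrl RIP, 11.68 in FLAG:MKRN1 input and 11.40 in FLAG:Ctrl input. The differences of the MKRN1-labelled RIP were -0.91 from the FLAG:Ctrl RIP, -1.01 from the IgG RIP and -0.99 from its input. Nop58, the other scaffold gene, read 10.99 in the MKRN1-labelled RIP and between 11.61 and 11.67 on the other 4 arrays. That is 1.59-fold lower than in each control RIP and 1.60-fold lower than in its input, and Nop58 had the smallest difference of the C/D genes. In differences between the lines, fewer cells of a type and less of an RNA per cell cannot be told apart. The IgG RIP and the FLAG:MKRN1 input came from the same lysate as the MKRN1-labelled RIP.

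**Figure D1:**
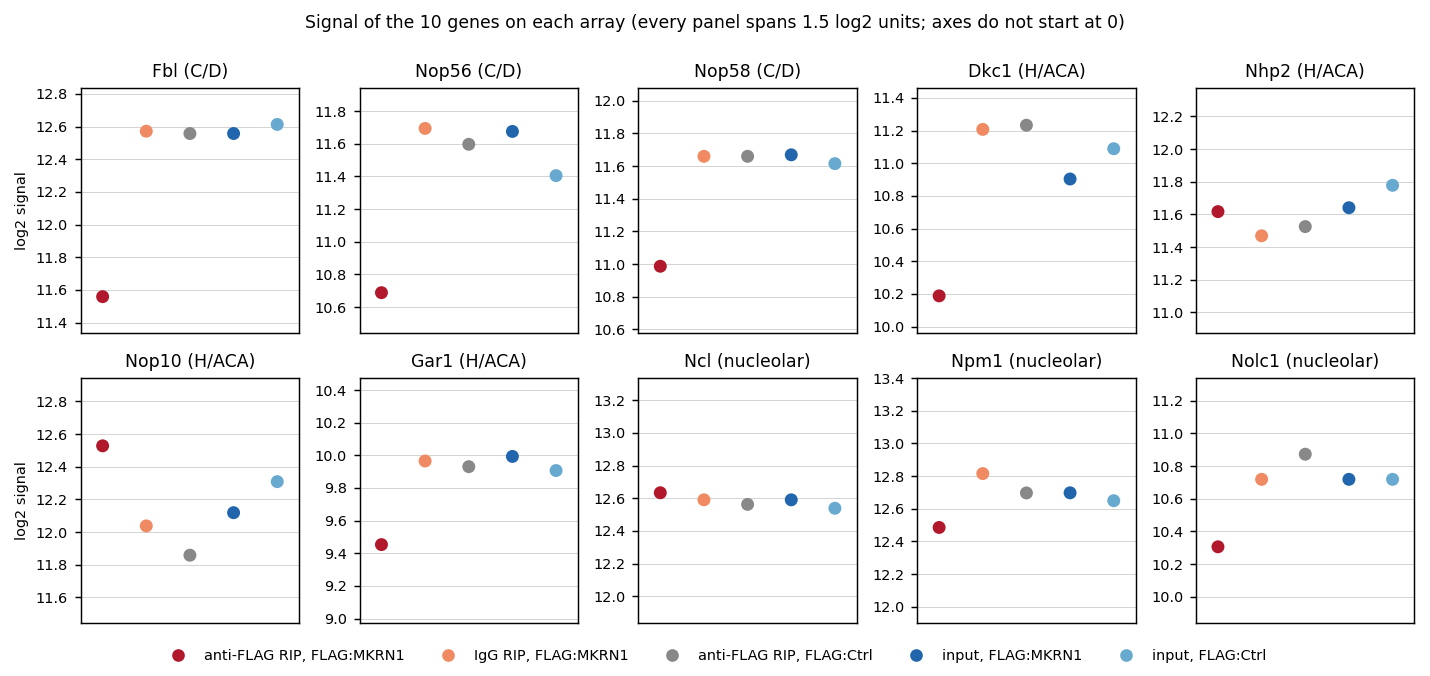
Log2 signal (y axis) of each of the 10 genes on the 5 arrays (coloured points, 1 array each), in panels that all span 1.5 log2 units and do not start at 0. The MKRN1-labelled RIP (red) is the lowest point for 7 genes, the highest for Nop10 and Ncl, and lies among the others for Nhp2.

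The 2 probe sets of Fbl disagreed. The main one has a mean of 12.37 over the 5 arrays and gave the values above. The second, with a mean of 7.92, read 8.34 in the MKRN1-labelled RIP, 7.75 in the IgG RIP, 7.98 in the FLAG:Ctrl RIP, 7.49 in FLAG:MKRN1 input and 8.04 in FLAG:Ctrl input. On it the MKRN1-labelled RIP was the highest array, with differences of 0.37 from the FLAG:Ctrl RIP, 0.59 from the IgG RIP and 0.85 from input. With the median over both probe sets, Fbl differed by -0.32, -0.21 and -0.07 from these arrays. Which part of the transcript each probe set covers is not given in the sources used here, and the direction for Fbl is uncertain.

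**Figure D2:**
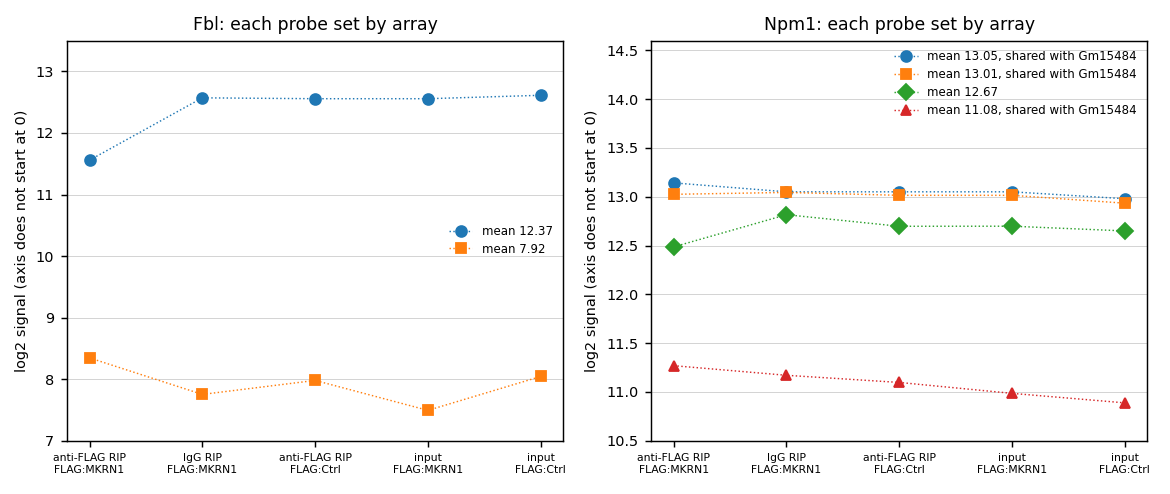
Log2 signal (y axis, not starting at 0) by array for each probe set annotated to Fbl (left) and Npm1 (right), 1 line per probe set, labelled by its mean over the 5 arrays. The Fbl probe set of mean 12.37 is lowest in the MKRN1-labelled RIP and the one of mean 7.92 is highest there; for Npm1 the probe set without a shared annotation is lowest there and the 3 shared with Gm15484 are not.

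The 4 core genes of the H/ACA particle did not share a direction, although their proteins sit together in every such particle. Dkc1, which encodes the pseudouridine synthase dyskerin, read 10.19 in the MKRN1-labelled RIP, 11.21 in the IgG RIP, 11.23 in the FLAG:Ctrl RIP, 10.90 in FLAG:MKRN1 input and 11.09 in FLAG:Ctrl input. It was 2.06-fold lower in the MKRN1-labelled RIP than in the FLAG:Ctrl RIP, 2.03-fold lower than in the IgG RIP and 1.64-fold lower than in the input. Both control RIPs lay above both inputs for Dkc1, which the MKRN1-labelled RIP did not.

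Gar1, whose glycine- and arginine-rich protein helps the particle to bind and release its substrate, read 9.45 in the MKRN1-labelled RIP and between 9.91 and 9.99 on the other arrays. Its differences were -0.48 from the FLAG:Ctrl RIP, -0.51 from the IgG RIP and -0.54 from the input. Nhp2, an RNA-binding core protein, read 11.62 in the MKRN1-labelled RIP, 11.47 in the IgG RIP, 11.53 in the FLAG:Ctrl RIP, 11.64 in FLAG:MKRN1 input and 11.78 in FLAG:Ctrl input. The MKRN1-labelled RIP thus lay inside the range of the other arrays for Nhp2, 0.09 and 0.15 above the control RIPs and level with its input, at -0.02.

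Nop10, a small protein that braces the catalytic domain of dyskerin, stood on the opposite side from Dkc1. Its message read 12.53 in the MKRN1-labelled RIP, 12.04 in the IgG RIP, 11.86 in the FLAG:Ctrl RIP, 12.12 in FLAG:MKRN1 input and 12.31 in FLAG:Ctrl input. The MKRN1-labelled RIP was highest, by 0.67 over the FLAG:Ctrl RIP, 0.49 over the IgG RIP and 0.41 over its input, and it was also above them with centring, quantile normalization or removal of the trend with signal level. The FLAG:Ctrl RIP, by contrast, lay 0.45 below its own input. At 1.59-fold and 1.40-fold over the control RIPs, Nop10 did not reach 2-fold.

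**Figure D3:**
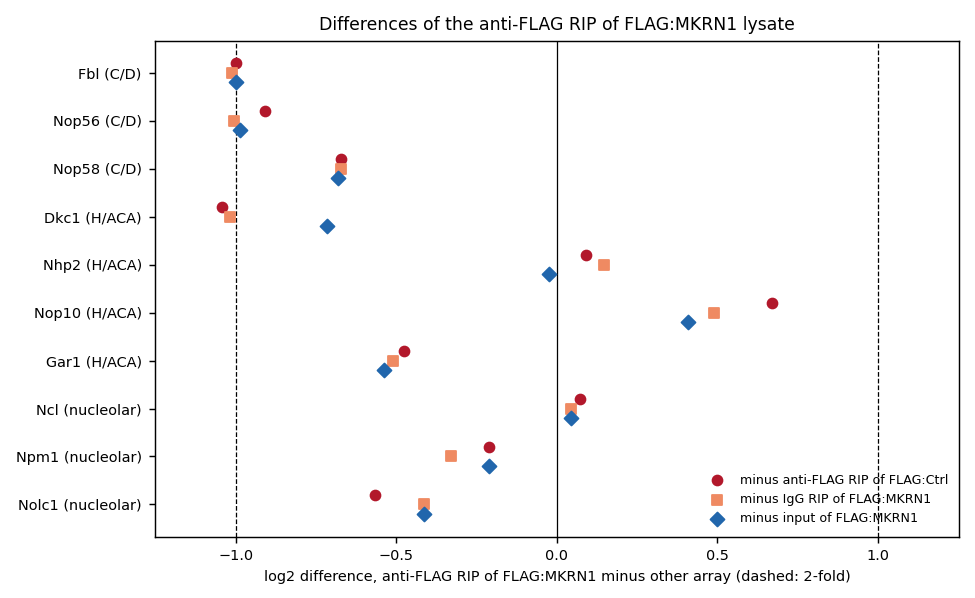
Log2 difference (x axis) of the MKRN1-labelled RIP from the FLAG:Ctrl RIP (circles), the IgG RIP (squares) and the input of the same lysate (diamonds) for each gene (rows); dashed lines mark 2-fold. Fbl, Nop56 and Dkc1 sit near -1, Nop10 is the gene farthest to the right, and all 3 comparisons use the same MKRN1-labelled RIP.

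Among the nucleolar proteins, Ncl was the steadiest of the 10 genes. Its message read 12.63 in the MKRN1-labelled RIP, 12.59 in the IgG RIP, 12.56 in the FLAG:Ctrl RIP, 12.59 in FLAG:MKRN1 input and 12.54 in FLAG:Ctrl input, a range of 0.095 over all 5 arrays. Nolc1, whose protein Nopp140 binds snoRNPs of both classes, read 10.31 in the MKRN1-labelled RIP, 10.72 in the IgG RIP, 10.87 in the FLAG:Ctrl RIP and 10.72 in each input. The MKRN1-labelled RIP lay under the other 4 arrays for Nolc1, with differences of -0.41 from the IgG RIP and -0.57 from the FLAG:Ctrl RIP.

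Npm1, the gene of the histone and ribosome chaperone nucleophosmin, read 12.49 in the MKRN1-labelled RIP, 12.82 in the IgG RIP, 12.70 in the FLAG:Ctrl RIP, 12.70 in FLAG:MKRN1 input and 12.65 in FLAG:Ctrl input. This is the probe set annotated to Npm1 alone, and on it the MKRN1-labelled RIP was lowest. Another 3 probe sets are annotated to both Npm1 and Gm15484 and are not counted as members. On these the MKRN1-labelled RIP differed from the FLAG:Ctrl RIP by 0.17, 0.01 and 0.09, so the low value for Npm1 rests on 1 probe set of 4. Signal from near-identical copies of Npm1 cannot be told apart on an array.

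Read against all genes, few of these differences were large. In the comparison with the FLAG:Ctrl RIP, 1 of the 10 genes, Dkc1, was at least 2-fold lower, and 7.11% of the 11502 genes were. In the comparison with the IgG RIP, 3 were at least 2-fold lower (Fbl, Nop56 and Dkc1), against 6.94% of all genes. In the comparison with input none was, against 5.51%. No member was at least 2-fold higher in these comparisons, where 1.62%, 1.53% and 2.47% of all genes were. Fbl missed the threshold by little against the FLAG:Ctrl RIP and against input, and Nop56 against input.

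By a stricter call, at least 2-fold below both control RIPs and below the input, Dkc1 alone was lower, against 5.36% of all genes; none was higher, against 1.09%. The median over the 10 genes was -0.52 against the FLAG:Ctrl RIP, -0.46 against the IgG RIP and -0.48 against input, where the medians over all genes were -0.03, -0.00 and 0.00. The MKRN1-labelled RIP was the lowest of the 5 arrays for 7 of the 10 genes and for 36.0% of all genes, and the highest for 2 of the 10 and for 32.7% of all genes.

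Bright genes as a whole lay lower in the MKRN1-labelled RIP, and all 10 members are bright. Between the lowest and the highest mean of the members, 9.85 and 12.67, lay 1654 other genes. Their median was -0.30 against each control RIP and -0.12 against input, and 11.1% and 11.7% of them were at least 2-fold lower than in the FLAG:Ctrl and the IgG RIP. With the trend with signal level removed, the members' medians were -0.22 and -0.20 against the FLAG:Ctrl and the IgG RIP. No member was then at least 2-fold lower, where 4.31% and 4.55% of all genes were. In that setting the differences from the FLAG:Ctrl RIP were -0.84 for Fbl, -0.76 for Dkc1, -0.67 for Nop56, -0.45 for Nop58 and 0.81 for Nop10. How far signal level sets the differences of these genes was not tested beyond this.

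The scaling of the arrays also moved small differences across 0. With each array centred on its median over all probe sets, the median of all genes was -0.18 against the IgG RIP and -0.23 against the FLAG:Ctrl RIP. Against the FLAG:Ctrl RIP and then the IgG RIP, Nhp2 lay at -0.11 and -0.03 and Ncl at -0.13 and -0.14, so no direction is given for these genes against the control RIPs. With the arrays centred on the kept genes instead, Nhp2 lay at 0.26 and 0.29 and Ncl at 0.23 and 0.19. Fbl, Nop56, Nop58, Dkc1, Gar1, Npm1 and Nolc1 stayed below 0 against both control RIPs, and Nop10 above it. This held in the main setting and in 5 others. The others were centring on all probe sets or on kept genes, quantile normalization, removal of the trend, and the median over probe sets. No setting took the second Fbl probe set alone, or the probe sets shared by Npm1 and Gm15484. The direction for Fbl thus stays uncertain, and that for Npm1 rests on the probe set annotated to it alone. Against the FLAG:Ctrl RIP, Npm1 lay at only -0.05 with centring on kept genes and -0.10 with the trend removed. Both are smaller in size than 0.243, the SD of the difference between the control RIPs over kept genes. The direction for Npm1 is therefore uncertain too.

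Before any immunoprecipitation the lines differed little in these messages. Between the FLAG:MKRN1 and the FLAG:Ctrl input, differences ran from -0.19 for Nop10 to 0.27 for Nop56, with a median of 0.02. None reached 2-fold, where 0.791% of all genes were at least that much lower and 0.878% higher. Background recovery was within 2-fold of input, and Nop10 in the FLAG:Ctrl RIP lay farthest from it, at percentile 3.49 of all genes. The IgG RIP differed from its input by -0.17 for Nhp2 to 0.30 for Dkc1, and the FLAG:Ctrl RIP by -0.45 for Nop10 to 0.19 for Nop56. No member was 2-fold from input in either, where 0.461% and 1.32% of all genes were lower and higher in the IgG RIP, and 0.374% and 0.948% in the FLAG:Ctrl RIP. Nop10 and Nhp2 were the only members below input in both control RIPs.

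After subtraction of the matching input from each anti-FLAG RIP, the FLAG:MKRN1 lysate minus the FLAG:Ctrl lysate came to -1.18 for Nop56, -0.94 for Fbl, -0.86 for Dkc1, -0.73 for Nop58, -0.57 for Nolc1 and -0.56 for Gar1. It was 0.86 for Nop10, 0.23 for Nhp2, 0.02 for Ncl and -0.26 for Npm1. The order of the genes was thus much as before, with Nop56 now lowest and Nop10 still highest.

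Several of these genes also carry small RNA genes within their span, since the guide RNAs of vertebrates are mostly cut from introns. In the RefSeq gene table of GRCm38.p6, 13 small RNA genes lie within the span of 4 members, Nop56, Nop58, Dkc1 and Ncl, and 4 of them have a probe set. Strand and intron were not checked, because neither is in the tables used. Snora75, an H/ACA guide RNA gene within Ncl, read 10.39 in the MKRN1-labelled RIP, 7.81 in the IgG RIP, 7.30 in the FLAG:Ctrl RIP, 9.38 in FLAG:MKRN1 input and 7.29 in FLAG:Ctrl input. It was 8.49-fold and 5.96-fold above the control RIPs, while Ncl stayed within a range of 0.095.

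The FLAG:MKRN1 input was itself 4.24-fold above the FLAG:Ctrl input for Snora75, and the IgG RIP differed from that input by -1.56. The inputs of the 2 lines differed by 0.05 for the host Ncl and by 2.08 for Snora75, which lay 1.01 above the input in the MKRN1-labelled RIP. The other small RNA genes were dim. Snord57 within Nop56 read 5.90 in the MKRN1-labelled RIP, 5.54 in the IgG RIP, 5.57 in the FLAG:Ctrl RIP, 5.54 in FLAG:MKRN1 input and 4.41 in FLAG:Ctrl input, with a mean under the level filter. Snord82 and the microRNA gene Gm24148, both within Ncl, had means of 4.28 and 3.86 and are not read further.

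**Figure D4:**
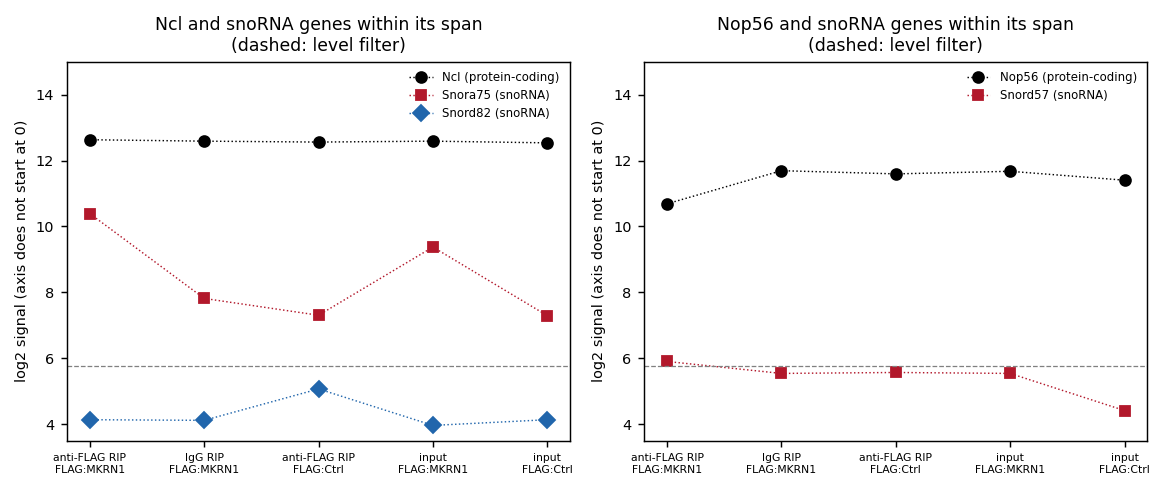
Log2 signal (y axis, not starting at 0) by array for Ncl with the small nucleolar RNA genes Snora75 and Snord82 (left) and for Nop56 with Snord57 (right); the dashed line is the level filter. Ncl is flat over the 5 arrays while Snora75 is high in the MKRN1-labelled RIP and in FLAG:MKRN1 input; levels of different probe sets are not comparable with each other.

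The promoters of the members were read for a shared sequence feature, as a description of these genes. RefSeq promoters (GRCm38.p6) were matched for 8 members, not for Fbl and Npm1, and the 250 bases before each annotated start were searched on both strands. The letters CCGGAA, the core bound by ETS-family factors, stood in 4 of the 8, against 12.0% of 32851 promoters; Nop58 and Gar1 hold 2 matches each, which overlap in Gar1. The E-box CACGTG, bound by Myc, stood in none of the 8, against 6.02%, and CCAAT in those of Nop56 and Nhp2, against 33.8%. The following 4 stretches hold the CCGGAA matches, in capitals on the strand of the gene (a match on the other strand reads TTCCGG), and are shown because they are the feature most often shared:
Nop58, chr1:59684867-59684926, plus strand: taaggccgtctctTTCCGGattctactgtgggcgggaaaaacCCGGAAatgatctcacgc
Gar1, chr3:129831405-129831464, minus strand: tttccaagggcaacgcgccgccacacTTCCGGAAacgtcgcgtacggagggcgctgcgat
Nhp2, chr11:51619713-51619772, plus strand: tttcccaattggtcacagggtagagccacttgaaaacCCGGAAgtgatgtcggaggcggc
Nolc1, chr19:46075787-46075846, plus strand: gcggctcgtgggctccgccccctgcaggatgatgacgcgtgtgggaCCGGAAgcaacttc

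Of the 4 genes that hold these matches, Nop58, Gar1 and Nolc1 were lowest in the MKRN1-labelled RIP and Nhp2 was not. Of the 4 that hold none within these bases, Nop56 and Dkc1 were lowest there and Nop10 and Ncl were not. These ranks are those of the main setting, and no direction is given for Nhp2 and Ncl against the control RIPs. Any relation of the letters to the RIPs was not tested, and a match is a description of the letters and not a shown binding site.

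In the main setting, most companion genes of ribosome production also read lower in the MKRN1-labelled RIP than in the control RIPs. Over 6 lists with 117 genes above the level filter, 18 were called lower and none higher by the strict rule, or 15.4% against 5.36% of all genes. Their median was -0.43 against the IgG RIP and -0.50 against the FLAG:Ctrl RIP; list medians given next follow the order FLAG:Ctrl RIP, IgG RIP. With the trend with signal level removed 7 were called lower, or 5.98% against 3.30% of all genes. The median of the 117 genes was then -0.22 against each control RIP. Both sets of differences share the MKRN1-labelled RIP, so neither backs the other independently.

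The list for the U3 particle and the small-subunit processome, the complex that a C/D particle of U3 RNA nucleates on the nascent ribosomal RNA, had 8 of 33 genes called lower, with medians of -0.56 and -0.57. Those with the lowest scores were Utp20 (-1.53), the GTPase gene Bms1 (-1.25), Wdr75 (-1.19) and Heatr1 (-1.17), where the score is the smaller in size of the differences from the control RIPs. With the trend with signal level removed, Utp20 was the 1 gene of this list still called.

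RNA polymerase I genes had 3 of 16 called lower, with medians of -0.68 and -0.42. They were Polr1b, the second-largest subunit, with 6.06 in the MKRN1-labelled RIP against 7.86 in the IgG RIP, 8.26 in the FLAG:Ctrl RIP and 7.95 in each input; the largest subunit gene Polr1a (-1.10); and Taf1d (-1.14), which encodes a promoter factor of the polymerase. Polr1b and Polr1a were also called with the trend with signal level removed.

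In the large-subunit assembly list 4 of 39 genes were called lower: the GTPase gene Gnl2 (-1.54), the giant ATPase gene Mdn1 (-1.30), Tex10 (-1.09) and Brix1 (-1.05). Its medians were -0.45 and -0.31, and -0.05 against input. With the trend with signal level removed they were -0.18 and 1.1e-05, and 0.05 against input, so the low medians of this list depend on the setting. Gnl2 was also unlike most genes in the backgrounds, at 0.88 above input in the IgG RIP and 0.93 in the FLAG:Ctrl RIP. Other nucleolar genes had 2 of 11 called, Urb2 (-1.59) and Urb1 (-1.10), and the fibrillarin-like gene Fbll1 was highest of that list at 0.57, from 6.43 in the MKRN1-labelled RIP against 5.82 to 5.87 on the other arrays, close to the level filter.

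Among the snoRNP assembly factors 1 of 10 was called lower, Ruvbl1 (-1.06), an ATPase of the chaperone complex that loads snoRNP proteins. Snu13, the fourth core protein of the C/D particle, was the highest of that list; it and Fbll1 were singled out after their values were seen. It read 11.95 in the MKRN1-labelled RIP, 11.83 in the IgG RIP, 11.92 in the FLAG:Ctrl RIP, 12.03 in FLAG:MKRN1 input and 12.31 in FLAG:Ctrl input. Its differences from the FLAG:Ctrl and the IgG RIP were 0.03 and 0.12, but -0.17 and -0.06 with arrays centred on all probe sets and -0.51 and -0.68 with the median over its 4 probe sets, so no direction is given for Snu13. None of 8 Cajal body and telomerase genes was called. The lowest of them, Tgs1, which modifies the cap of U3 and other small RNAs, scored -0.96. The highest, Wrap53, which takes H/ACA RNAs to Cajal bodies, scored 0.04.

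**Figure D5:**
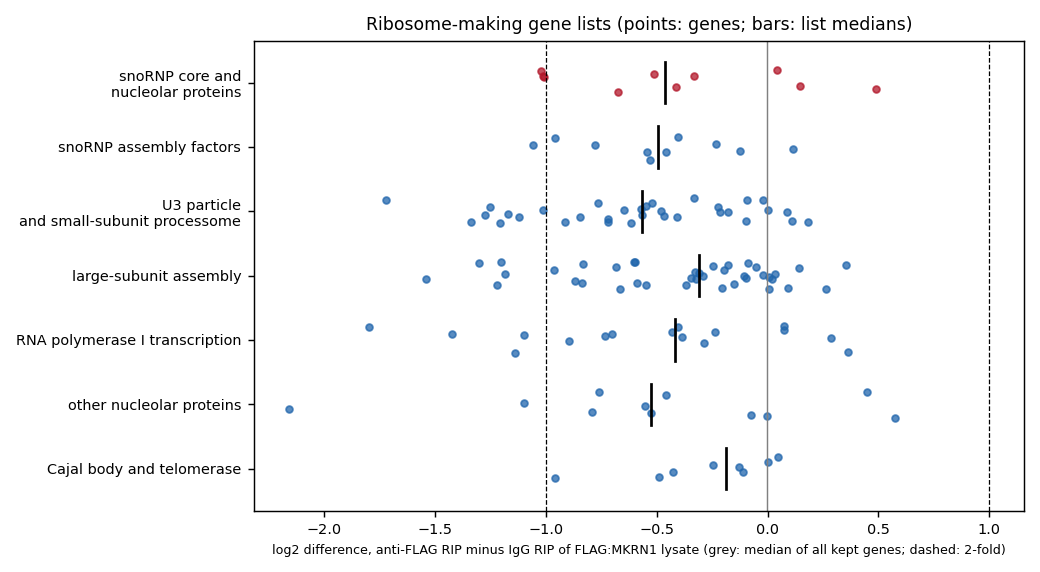
Log2 difference (x axis) of the MKRN1-labelled RIP from the IgG RIP for the 10 genes (red) and for the genes of 6 companion lists above the level filter (blue), with list medians as black bars, the median of all genes as a grey line and 2-fold as dashed lines; the vertical scatter within a row has no meaning. In the main setting, which is plotted, every list median lies left of the median of all genes. The list medians run from -0.57 for the U3 and small-subunit list to -0.19 for the Cajal body list. No gene plotted reaches 2-fold to the right. With the trend with signal level removed, the large-subunit median is 1.1e-05 and that of all genes is -0.005.

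The genes nearest to the members' median profile over the 5 arrays were found by Euclidean distance, each gene centred on its own mean. Nop10 was highest in the MKRN1-labelled RIP and Ncl was nearly level over the arrays, so this profile does not describe every member. The nearest 3 of 11492 other genes were Srsf6 at a distance of 0.0257, Srrm1 at 0.0405 and Erc1 at 0.0415. The median gene lay at 0.562, but the 3 were picked as the smallest, so this contrast is set by the choice. The members' own distances are not given. Srsf6 and Srrm1 encode splicing proteins of the serine- and arginine-rich kind, and Erc1 a scaffold protein of the cell cortex. Srsf6 read 9.51 in the MKRN1-labelled RIP, 9.99 in each control RIP, 9.92 in FLAG:MKRN1 input and 9.96 in FLAG:Ctrl input; the members' median profile was -0.38 from the mean in the MKRN1-labelled RIP and between 0.04 and 0.13 on the other arrays.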

How the data were processed

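RNA from 5 samples of R1 cells was measured on Affymetrix arrays, per the labels, with 1 array per group. The authors deposited processed log2 values, 1 for each probe set on each array, between 2.56 and 14.4; the scale was inferred from that range. How they corrected background, summarised probes and normalized is not given in the sources used. All 5 sample columns were assigned by their labels.

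Of 34760 probe sets, 21640 had 1 symbol in the platform annotation, 1321 several and 11799 none; 21553 matched the RefSeq gene table (GRCm38.p6). A gene took its probe set with the highest mean, and the 11502 genes whose mean reached the probe-set median of 5.76 were kept. Comparisons are differences of log2 values counted at 2-fold, with no test. A gene was called lower (or higher) when at least 2-fold below (above) both control RIPs and below (above) the input of its lysate; the score is the smaller difference from the control RIPs, or 0 where signs differ. The SD of the difference between the control RIPs was 0.243 over kept genes, and precision is limited by the number of arrays. Arrays had medians from 5.68 to 5.88, the MKRN1-labelled RIP an SD of 2.19 and the others 2.28 to 2.35. Between 6.77% and 19.2% of kept genes had equal values on a pair of arrays, among them Fbl, Nop58, Ncl and Nolc1 on some pairs.

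Named were all members, small RNA genes within them with a probe set, up to 4 called genes per list (otherwise the highest and lowest score) and the 3 nearest profiles. The strand condition of that rule could not be used. Members and lists were chosen with earlier results of these data known. The symbols Polr1f, Polr1g and Polr1h were matched as Twistnb, Cd3eap and Znrd1; Rrp7a, Ppan, Noc2l and Npm3 were not matched, and Ddx51 and Npm2 fell under the filter. Of other markers, primitive endoderm medians ran from 5.65 to 5.96 and trophectoderm from 5.91 to 6.38. The calling rule was tested on simulated data with planted shifts larger than any member's difference. That test therefore says nothing about calls near 2-fold. Python 3.11.15, numpy 2.4.6, pandas 2.3.3, scipy 1.17.1, statsmodels 0.14.6 (lowess fraction 0.3) and matplotlib 3.10.9 were used.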

Additional observations from a re-analysis of the deposited data

Results flagged for a closer look

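Recovery of Nop10 relative to input had opposite signs in the 2 lines, with both differences beyond the spread between the control RIPs. Nop56, Nop58, Dkc1, Gar1, Npm1 and Nolc1 also had opposite signs, below input in the FLAG:MKRN1 line and above it in the FLAG:Ctrl line, but their FLAG:Ctrl differences, from 0.02 to 0.19, were smaller than that spread. The anti-FLAG RIP of Nop10 lay 0.41 above input in the FLAG:MKRN1 line and 0.45 below input, at -0.45, in the FLAG:Ctrl line. That spread is an SD of 0.243, for a difference between RIPs and not for a RIP minus its input. Over all genes, RIP minus input had an SD of 0.567 in the FLAG:MKRN1 line and 0.319 in the FLAG:Ctrl line. The 0.41 of Nop10 is smaller than the first, and its -0.45 is larger in size than the second. The share of all genes that meet the same rule was not counted. With 1 array per group the difference between the lines was not tested.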

How the results depend on the processing

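No paired analysis was possible because each group has 1 array. No difference changed sign among those called. The members' median against the FLAG:Ctrl RIP was -0.25 under quantile normalization, -0.22 once the level trend was taken out, and -0.20 against the IgG RIP with the trend removed. With quantile normalization, with the trend removed, or with arrays centred on the kept genes (chosen after seeing the data), 0 members were 2-fold lower against either control RIP and 0 were called lower, against 3.30% to 3.61% of all genes called. With centring on all probe sets, 3 were 2-fold lower than in the FLAG:Ctrl RIP (11.6% of all genes), 2 than in input (7.16%), and 3 were called lower (8.42%). At 1.5-fold, 4 were lower than in the FLAG:Ctrl RIP (18.6% of all genes), 4 than in input (14.3%), 4 were called lower (14.38%), and 1 was higher than in the FLAG:Ctrl RIP (6.76%); at 4-fold, 0 were lower than in either control RIP (0.348% and 0.278%). The cause was not tested. The members' median was also -0.24 against the IgG RIP under quantile normalization, and -0.31 against input with the median over probe sets. The 129 other values that answer a comparison, these included, differed by less than the SD of 0.243 or, for counts, by at most 1.5 times. Many of them are counts of 0 in the main setting and in the other. Raising values to the level filter could not change the members, which all lie above it. The median over probe sets could change only Fbl. Most of these values therefore say little about stability. Over all genes, those higher made up 18.5% of genes 2-fold apart from the FLAG:Ctrl RIP, 7.49% with centring, 32.3% with quantile normalization, 36.0% with the trend removed and 36.6% with centring on kept genes; against the IgG RIP these shares were 18.1%, 7.44%, 31.0%, 31.99% and 31.8%, and against input 30.9%, 20.6%, 40.8%, 35.4% and 36.5%. Called lower over all genes were 617 in the main setting, 968 with centring, 415 with quantile normalization, 379 with the trend removed and 405 with centring on kept genes. Of the 117 companion genes these settings called 18, 26, 7, 7 and 8 lower.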
